A study of Mus musculus with 4 samples.

Results

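Gene deserts are long stretches of a chromosome without protein-coding genes, and the accessible sites inside them were examined in mouse hair follicle stem cells. A gene desert peak was defined as an ATAC-seq peak on chromosomes 1 to 19 whose midpoint lay outside all protein-coding genes and more than 100 kb from the nearest bound of any of them, on the RefSeq annotation of GRCm38. Peaks in stretches of 40 or more peaks joined at gaps under 12.5 kb were left out. The rule took 9281 peaks of 74777 in all, or 12.9% of the 72012 autosomal peaks (95% Wilson interval 12.6% to 13.1%). Of the 9456 autosomal peaks beyond 100 kb, 175 were left out with 3 such stretches.

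ATAC-seq marks open chromatin by where the transposase Tn5 can insert adapters. Back skin was taken from female mice on postnatal day 30, and cells were gated as H2BGFP(+), Sca-1(-), CD34(+) and CD49f(+), which marks stem cells of the follicle bulge. The knockout mice were K14-H2BGFP, K14Cre, Foxc1 fl/fl, and the controls K14-H2BGFP, Foxc1 fl/fl. Both genotypes thus carried the floxed Foxc1 allele and a histone-GFP fusion driven by the keratin 14 promoter, which is active in basal keratinocytes in general and not in bulge stem cells alone. The labels give 2 runs for each of the 2 genotypes and call the second of each resequenced. The runs of a genotype were therefore taken here as 1 library, which the labels do not state outright. A single peak list served all 4 runs, with a chromosome, a start and an end for each peak and no height, read count or genotype. No comparison between knockout and control and no test was therefore possible, the sequencing depth is unknown, and the labelled cell type could not be checked against marker levels. Values below describe this list, and their 95% intervals (Wilson for shares, exact Poisson for densities) cover counting error only.

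Some gene deserts flank genes for developmental transcription factors and signalling proteins and hold enhancers that act on those genes over long distances. Other deserts hold few regulatory elements and lie in compact chromatin. Deserts also contain genes that make no protein, among them long non-coding RNAs (lncRNAs), clusters of small nucleolar RNAs (snoRNAs) that guide RNA modification, and microRNAs, which pair through their seed bases with messenger RNAs.

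Desert ground held 100 microRNA hairpins, and 8 of them had a desert peak within 1 kb. Some of the 8 shared a peak. The same share was not computed for other ground, so the count does not show that peaks favour hairpins. The mature sequences of those of the 8 with well-known relatives are shown because they are the named products closest to these peaks. Sequences and positions are from RefSeq for GRCm38.p6, the seed (bases 2 to 8) is in capitals, and miR-29a-3p and miR-29b-3p share theirs.
miR-205-5p, chr1:193507503-193507524, minus strand: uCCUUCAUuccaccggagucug
miR-29a-3p, chr6:31062673-31062694, minus strand: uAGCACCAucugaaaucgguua
miR-29b-3p, chr6:31063025-31063047, minus strand: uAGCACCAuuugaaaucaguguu
miR-99a-5p, chr16:77598940-77598961, plus strand: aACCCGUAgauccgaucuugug
let-7c-5p, chr16:77599672-77599693, plus strand: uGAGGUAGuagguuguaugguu

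Mir205, whose product is abundant in skin epithelium and its stem cells, lay in a group of 6 desert peaks that spanned 19.5 kb. The widest of the 6 was 3661 bp (chr1:193503346-193507006), ended 456 bp from the hairpin and lay 135 kb from the nearest protein-coding gene, Camk1g. A second peak of 903 bp began 587 bp from the hairpin on its other side. Mir205hg, the lncRNA gene that hosts the hairpin (chr1:193506460-193510210), overlapped 3 of the 6. Mir29a and Mir29b-1 shared 1 desert peak of 641 bp, which was 286 bp from Mir29a and 649 bp from Mir29b-1. Mirlet7c-1 was overlapped by a peak of 479 bp that also lay 549 bp from Mir99a. The other hairpins within 1 kb were Mir344b, Mir6372 and Mir6390.

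Promoter windows of desert lncRNAs are the other sequences on which these peaks can be placed. RefSeq promoter windows ran from 250 bases before to 50 after a start. With 1 autosome left out of the count and the choice, such windows lay wholly under a desert peak for 75 lncRNA genes. Those shown were chosen after their values were seen: 2 under the widest peaks among windows with 10 or more CpG dinucleotides, 2 under the widest peaks among windows with fewer CpG and an AP-1 match, and 1 near Bmp2. Capitals mark matches on either strand to the motifs searched, and positions count from 1 at the 5′ end of the window.
Lncpint promoter, chr6:31218425-31218724, minus strand: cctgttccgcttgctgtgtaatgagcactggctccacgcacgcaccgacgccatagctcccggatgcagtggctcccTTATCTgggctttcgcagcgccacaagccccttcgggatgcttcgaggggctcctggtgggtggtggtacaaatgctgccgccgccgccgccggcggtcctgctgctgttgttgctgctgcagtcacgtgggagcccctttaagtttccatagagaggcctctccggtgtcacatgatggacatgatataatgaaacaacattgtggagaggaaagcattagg
Gm26901 promoter, chr1:7398047-7398346, minus strand: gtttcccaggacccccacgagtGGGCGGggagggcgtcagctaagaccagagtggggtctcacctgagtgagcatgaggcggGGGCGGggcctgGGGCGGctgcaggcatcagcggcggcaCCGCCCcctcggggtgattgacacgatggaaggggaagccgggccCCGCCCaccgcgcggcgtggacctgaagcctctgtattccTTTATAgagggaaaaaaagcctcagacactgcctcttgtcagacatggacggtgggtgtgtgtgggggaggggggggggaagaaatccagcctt
Gm32587 promoter, chr14:18463360-18463659, plus strand: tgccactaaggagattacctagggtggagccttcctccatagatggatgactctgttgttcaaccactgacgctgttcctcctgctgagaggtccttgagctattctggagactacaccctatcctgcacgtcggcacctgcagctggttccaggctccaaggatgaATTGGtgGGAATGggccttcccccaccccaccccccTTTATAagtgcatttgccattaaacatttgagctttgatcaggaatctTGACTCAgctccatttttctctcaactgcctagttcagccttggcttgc
4732465J04Rik promoter, chr10:95772883-95773182, plus strand: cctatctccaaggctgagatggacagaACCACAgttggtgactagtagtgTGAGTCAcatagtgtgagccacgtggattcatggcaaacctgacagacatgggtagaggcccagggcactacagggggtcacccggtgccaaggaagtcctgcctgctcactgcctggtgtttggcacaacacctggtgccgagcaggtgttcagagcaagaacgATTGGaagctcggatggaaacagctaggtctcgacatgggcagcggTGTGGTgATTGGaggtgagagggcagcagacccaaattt
A430048G15Rik promoter, chr2:133431847-133432146, plus strand: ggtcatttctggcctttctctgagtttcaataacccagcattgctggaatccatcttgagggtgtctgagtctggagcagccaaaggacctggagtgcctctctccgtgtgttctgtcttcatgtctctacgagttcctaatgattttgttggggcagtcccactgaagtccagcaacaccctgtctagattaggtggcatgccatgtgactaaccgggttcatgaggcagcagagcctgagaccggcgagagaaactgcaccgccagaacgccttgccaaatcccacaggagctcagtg

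The Gm26901 window held 18 CpG and GC boxes at positions 23, 83, 95, 122 and 167, under a peak of 3181 bp that lay 224 kb from Pcmtd1. The Lncpint window also held 18 CpG and had a single GATA match, under a peak of 3357 bp. Gm32587 had 3 CpG and an AP-1 match at position 252, and 4732465J04Rik had 7 CpG and an AP-1 match at position 51. The window of A430048G15Rik had 7 CpG and no match, under a peak of 1458 bp that lay 120 kb from Bmp2. A match is a description of letters and not a measured binding site.

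Peaks were sparser in deserts than elsewhere. Desert ground covered 656 Mb, or 27.4% of the autosomal ground between the first and last annotated genes, and held 14.1 peaks per Mb (13.8 to 14.4). Ground outside genes but within 100 kb of one covered 761 Mb and held 32.6 per Mb (32.2 to 33.0), and protein-coding genes held 36.9 per Mb. The ratio of desert to near ground was 0.432. It was below 1 on 19 of 19 autosomes and ran from 0.315 on chromosome 4 to 0.631 on chromosome 13. Chromosome 13 was also the densest in desert peaks, at 20.2 per Mb, and chromosome 8 the least dense, at 11.2 per Mb. Of the members, 51 lay before the first or after the last annotated gene and enter no density.

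Density went on falling inside the deserts. It was 43.2 peaks per Mb within 10 kb of a gene and 23.02 per Mb at 75 to 100 kb. Beyond the limit it was 18.6 per Mb at 150 to 200 kb, 16.1 at 200 to 300 kb, 13.0 at 300 to 500 kb and 9.09 at 500 to 1000 kb. More than 1000 kb from any gene it was 6.44 per Mb (5.84 to 7.08), from 423 peaks. The intervals of neighbouring bins beyond 150 kb did not overlap. The median desert peak lay 233 kb from its nearest gene, with quartiles of 150 and 405 kb. The farthest lay 2240 kb away, between Celf4 and Pik3c3. At the limit itself, the 3 nearest peaks inside were 336, 265 and 615 bp wide and next to Gm597, Otogl and Palmd, and the 3 just outside were 1477, 296 and 200 bp wide and next to Zfp36l2, Cypt12 and Sesn3.

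**Figure D1:**
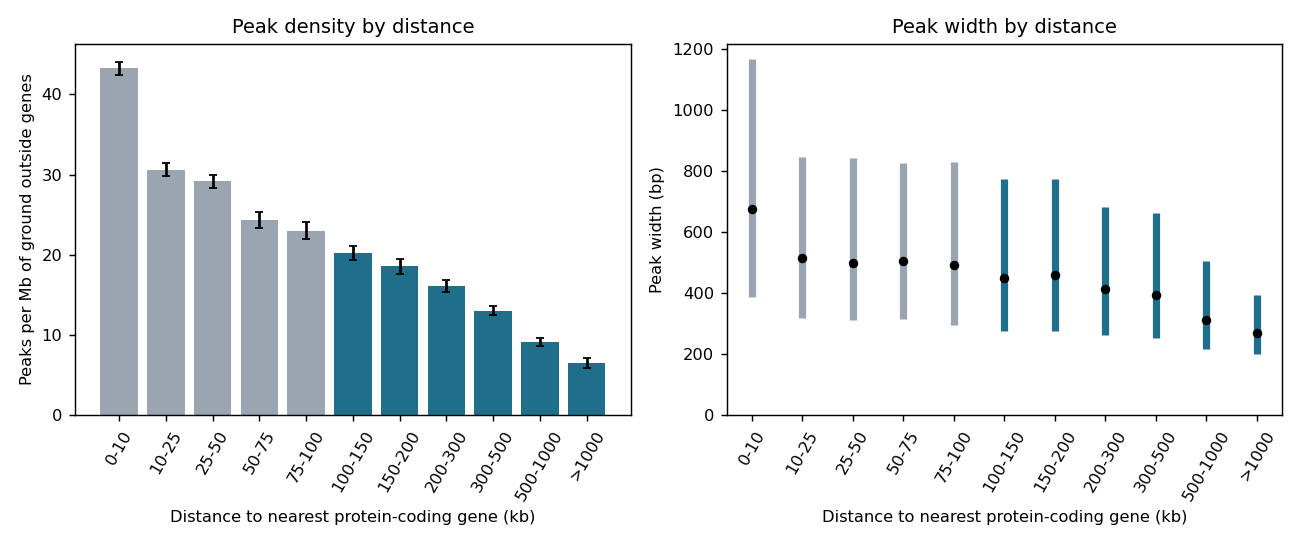
Peak density (left, peaks per Mb of ground outside protein-coding genes, bars with exact Poisson 95% intervals) and peak width (right, bp, points for medians and lines for quartiles) by distance to the nearest protein-coding gene in kb. Grey marks ground within 100 kb and blue gene deserts; density falls from 43.2 per Mb within 10 kb to 6.44 per Mb beyond 1000 kb.

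Desert peaks were also narrow. Their median width was 402 bp (quartiles 253 and 685 bp), against 515 bp for peaks outside genes at 1 to 100 kb, 583 bp for peaks inside protein-coding genes and 1200 bp for peaks at the ends of those genes. The desert median was below that of the near peaks on 19 of 19 autosomes. In the deserts 1111 peaks (11.97%, 11.33% to 12.65%) were at least 1000 bp wide, where 26.4% of all autosomal peaks outside dense stretches were. Among peaks outside genes at 1 to 100 kb the share was 18.8%. The narrowest width in the list, 200 bp, was held by 1119 desert peaks (12.1%, 11.4% to 12.7%), against a background of 6.33%. It was held by 6.91% of peaks outside genes at 1 to 100 kb. Far inside the deserts width was lower too, although not at each step: the median was 451 bp at 100 to 150 kb, 461 bp at 150 to 200 kb, 413.5 bp at 200 to 300 kb, 393 bp at 300 to 500 kb, 311 bp at 500 to 1000 kb and 268 bp beyond 1000 kb, where 27.7% of peaks were 200 bp wide.

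**Figure D2:**
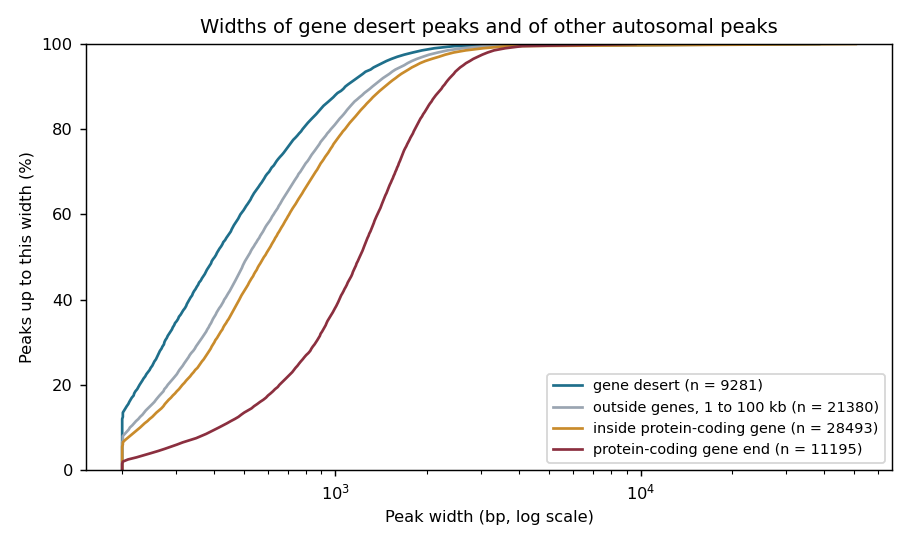
Share of peaks (%) up to each width (bp, log scale) for gene desert peaks and for autosomal peaks elsewhere, all outside dense stretches. The desert curve lies to the left of the others, with a median of 402 bp against 1200 bp for peaks at gene ends.

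Most of the deserts held some peak, and a minority held most of the peaks. There were 1386 deserts, 1376 of them between a pair of protein-coding genes, and 1109 (80.0%) held at least 1 peak. The 337 deserts with at least 10 held 69.4% of the peaks on 59.8% of the ground. These were picked by their own peak count, so a share of peaks above the share of ground is built in. The 277 empty deserts were short, with a median length of 40.9 kb against 335 kb for the others. A short desert also has less ground on which a peak can lie. The longest empty one, 543 kb, lay between Pcsk5, a proprotein convertase gene, and Ostf1. Gaps of at least 500 kb without protein-coding genes accounted for 587 deserts and 79.2% of the peaks. Their share of the ground was not computed, so this share does not show crowding. Deserts of 2000 kb or more held 8.93 peaks per Mb and those under 100 kb 24.9 per Mb, and the ground of a short desert is close to a gene by construction.

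Desert peaks stood alone more often than others. Another peak lay within 12.5 kb of 5080 desert peaks (54.7%, 53.7% to 55.7%), against a background of 71.3%. A lone desert peak had a median width of 328 bp. Peaks in pairs had a median of 422 bp, those in groups of 3 to 5 had 506 bp, and those in groups of 6 to 39 had 549 bp. The last class held 835 peaks. Among the near peaks, lone ones were narrower too, with a median of 422 bp against 620 bp in groups of 6 to 39. The rise in width from lone to grouped peaks was therefore not particular to deserts.

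The 12 deserts with the most peaks held 43 to 59 each, and in several the peaks lay mostly on the side of 1 flanking gene. Bcl11a and Fancl, a transcription factor of blood and a DNA repair ligase, flanked 59 peaks spread almost evenly, 29 on the Bcl11a side and 30 on the Fancl side. Slc10a2 and Efnb2, a bile acid transporter and the ligand ephrin-B2, also flanked 59, of which 44 were nearer to Efnb2. The desert between Nmbr and Cited2 held 58, and 47 were nearer to Cited2, a transcriptional coregulator. Between Celf2 and Gata3, 44 of 51 were nearer to Gata3, a transcription factor of the inner root sheath and of T cells. Between Agtr1b and Tbl1xr1, 36 of 43 were nearer to Tbl1xr1, a subunit of a corepressor complex. That desert had 17 peaks of at least 1000 bp and a median width of 855 bp. The peaks between Igfbp7 and Adgrl3 were divided 21 to 23 and had a median width of 304 bp.

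**Figure D3:**
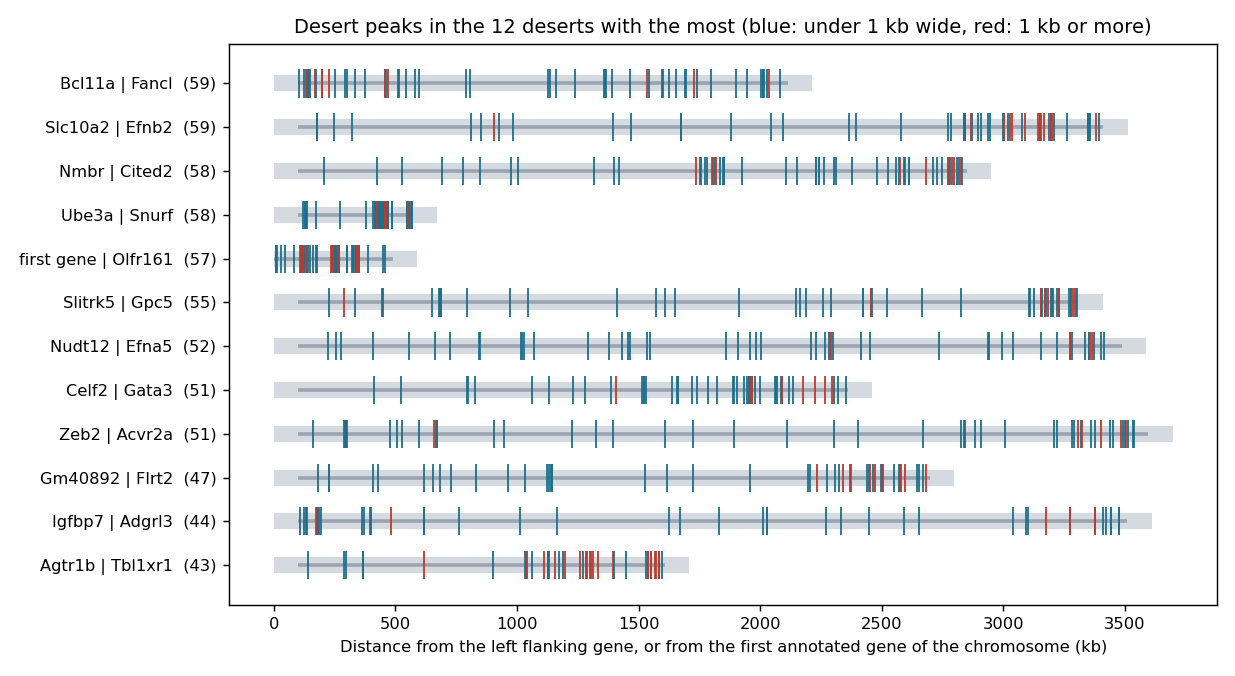
Positions of desert peaks (ticks) in the 12 deserts with the most, as distance in kb from the flanking gene at lower coordinates or from the first annotated gene of the chromosome; blue ticks are under 1 kb wide and red ticks 1 kb or more. Peaks crowd toward Efnb2, Cited2, Gata3 and Tbl1xr1, and divide 29 to 30 between Bcl11a and Fancl.

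The remaining deserts of the 12 were those between Ube3a and Snurf with 58 peaks, before Olfr161 with 57, between Slitrk5 and Gpc5 with 55, Nudt12 and Efna5 with 52, Zeb2 and Acvr2a with 51, and Gm40892 and Flrt2 with 47. Gpc5 is a glypican, Efna5 the ligand ephrin-A5, Acvr2a an activin receptor and Flrt2 a cell adhesion protein. Counted by nearest gene over both flanks, Adgrl2, an adhesion receptor, had 49 desert peaks, Usp25, a deubiquitinase, had 37, and Klf6, a zinc finger transcription factor, had 32. The widest peak beside Klf6 was 3736 bp (chr13:6026901-6030636), 158 kb from the gene. Mctp2, a membrane protein with C2 domains, also had 32.

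By density the order was different. Among deserts of at least 200 kb, the Ube3a to Snurf desert had 123 peaks per Mb and the one before Olfr161 had 116. Next came the desert between Phlda1 and Krr1, with 29 peaks in 264 kb (110 per Mb). Phlda1 is a gene known from follicle stem cells. The desert between Dusp6, a MAP kinase phosphatase, and Csl had 93.0 per Mb. The desert between Klf14 and Mkln1, which holds Mir29a, Mir29b-1 and Lncpint, had 91.7 per Mb and a median width of 1042.5 bp. The longest deserts were at the other extreme. The 4342 kb between the protocadherin genes Pcdh20 and Pcdh9 held 20 peaks (4.61 per Mb), none of them 1000 bp wide, and included a run of 1005 kb without any. Between Cntnap5b and Cdh20, 15 peaks lay in 4078 kb (3.68 per Mb). Olfm4 and Pcdh17 flanked 24 peaks, Tenm3 and Aga 22, and Celf4 and Pik3c3 27.

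Genes of the hair follicle stem cell list had many desert peaks beside them. Of its 36 genes, 16 bounded a desert, and 13 of these (81.25%, 57.0% to 93.4%) had at least 1 peak on their side. The share over all 2352 bounding genes, 69.8%, lay inside that interval. Their sides held 36.2 peaks per Mb (30.1 to 43.2), against 14.1 over all bounding genes. Without Bmp2, the gene with the most, the value was 33.2. The median gene of the list, among 13 with at least 50 kb of desert, had 38.8 per Mb, against 11.9 over 1653 such genes. Because density falls with distance, the ground at 100 to 200 kb from each gene was also compared, a choice made after the data were seen. There the list had 45.1 per Mb (35.1 to 56.9) and all bounding genes 19.5 (18.9 to 20.1). The lists were drawn up with results of these data known and share genes, so these values describe them and are no test.

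Bmp2, a bone morphogenetic protein that keeps follicle stem cells quiescent, had 29 desert peaks, 14 below and 15 above the gene, the widest 2151 bp at 160 kb. Sox9, a transcription factor of the follicle stem cell, had 20, divided 9 and 11, with a median width of 760 bp. Tnc, the matrix protein tenascin C, had 17, all on 1 side, the only one on which it bounded a desert. Nfib, a transcription factor of the same stem cells, had 16, of which 14 lay below the gene and 5 were at least 1000 bp wide. Tgfb2 had 8, Barx2, Lef1 and Nfia had 6 each, Runx1 had 5 and Foxp1 had 4. The members that bounded a desert with no peak on their side were Itga6, Lgr5 and Tcf7l2, with 20.1, 14.5 and 76.7 kb of desert. Foxc1, the deleted gene, bounded no desert. Its neighbour Foxq1, named here after its value was seen, had 8 desert peaks.

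Of the epidermal keratinocyte genes, 13 bounded a desert and 11 had a peak, at 25.7 per Mb overall and 34.8 per Mb at 100 to 200 kb. Klf4, a factor of epidermal differentiation, had 12, all above the gene, the only side on which it bounded a desert. Jun, a subunit of AP-1, had 10 with a median width of 889.5 bp, the widest 2383 bp at 110 kb. Tfap2b had 8, none as wide as 1000 bp. Trp63 and Egfr had none, in 30.1 and 21.9 kb of desert. Signalling ligands, receptors and antagonists gave 32 of 37 genes with a peak and 21.7 per Mb, or 25.5 at 100 to 200 kb. Jag1, a Notch ligand, had 25, all above the gene, the only side on which it bounded a desert. Of these, 9 were at least 1000 bp wide. The Wnt receptor genes Fzd8 and Fzd1 had 18 and 11. Fgfr2, a fibroblast growth factor receptor, and Gdf6, a ligand of the BMP family, had 9 each, with median widths of 583 and 271 bp.

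The remaining lists held genes of other cell types and broad families. Developmental transcription factors gave 94 of 124 genes with a peak and 19.2 per Mb, or 24.5 at 100 to 200 kb. Genes of other skin and blood cells gave 10 of 14 and 23.4 per Mb, or 26.1 at 100 to 200 kb. The list named neuronal adhesion and synapse gave 88 of 115 genes with a peak, but 8.45 per Mb, and 10.4 at 100 to 200 kb (8.88 to 12.2), below all bounding genes. That list is broad and not purely neuronal: Cdh5, with 25 peaks, is also in the list of other skin and blood cells. Chemosensory receptor genes gave 9 of 26 with a peak. Their 42.3 per Mb became 15.05 without Olfr161.

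**Figure D4:**
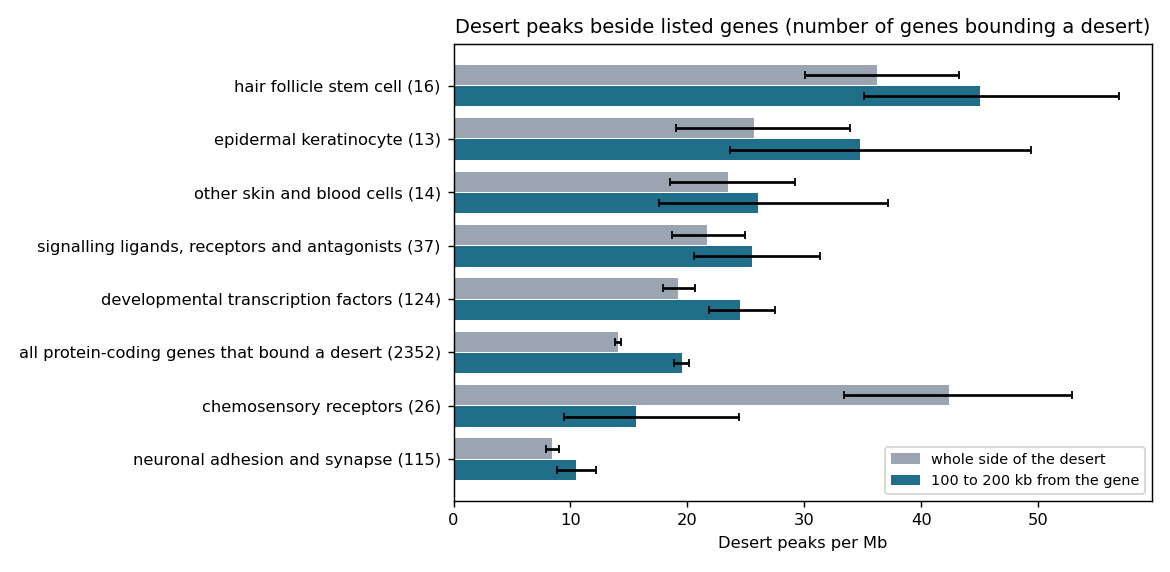
Desert peaks per Mb beside the genes of 7 lists and beside all 2352 protein-coding genes that bound a desert, over the whole side of the desert nearer to the gene (grey) and at 100 to 200 kb from it (blue), with exact Poisson 95% intervals. At 100 to 200 kb the hair follicle stem cell list has 45.1 per Mb and the neuronal list 10.4 per Mb, against 19.5 for all; the grey chemosensory bar falls to 15.05 without Olfr161.

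Non-coding genes lay at or around a part of the desert peaks. The midpoint was within 1000 bp of a bound of a non-coding gene for 470 (5.06%, 4.64% to 5.53%), against a background of 7.06%, and inside such a gene for 1710 (18.4%). The share inside was 12.1% over all autosomal peaks outside dense stretches and 19.5% for the near peaks. The share at non-coding gene ends was lower than in the near peaks on 18 of 19 autosomes. The exception was chromosome 7, with 17.1% against 9.80%. Ground within 1000 bp of those ends held 28.1 desert peaks per Mb (25.7 to 30.8), and the rest of the deserts 13.7. By type, 315 peaks were at ends of lncRNA genes, 66 of pseudogenes, 55 of snoRNA genes and 16 of V segments. Peaks at non-coding ends had a median width of 492.5 bp and the others 396 bp. A wide peak can reach such an end with its midpoint farther off, and is then counted with the others.

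The chromosome 7 value came with the imprinted region between Ube3a and Snurf, whose snoRNA clusters lie in long transcripts made from the paternal copy. In its 472 kb, 48 of 58 peaks were at ends of non-coding genes, of which it held 170. One group there had 35 peaks in 64.9 kb. The widest peak, 3414 bp (chr7:59766872-59770285), was at the snoRNA gene Gm25210. The snoRNA genes of such clusters are near-identical copies, and how reads that map to several places were treated is not known here.

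Peaks were more often at the start of lncRNA genes than at the other end. Among 1479 lncRNA genes of at least 2 kb in deserts, the window at the start met a peak in 100 (6.76%, 5.59% to 8.16%) and a mirrored window at the other end in 27 (1.83%, 1.26% to 2.64%). With 10 or more CpG at the start, the start met a peak in 22 of 85 (25.9%, 17.8% to 36.1%) and the other end in 0 of 85, which allows a share of up to 3.53% by a limit of 3 counts and up to 4.32% by the Wilson interval. With fewer CpG the shares were 5.60% and 1.94%. For lncRNA genes outside protein-coding genes and within 100 kb of one, the start met a peak in 16.7% of 3486 and the other end in 3.56%. This comparison was added after the data were seen.

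**Figure D5:**
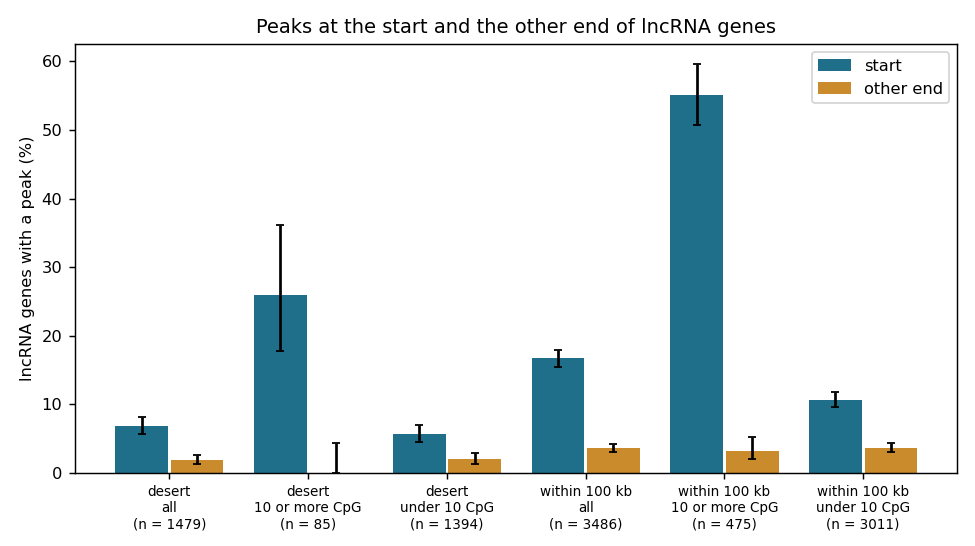
Share of lncRNA genes of at least 2 kb (%) with a peak in a 300-base window at the start (blue) or at the other end (orange), in deserts and within 100 kb of a protein-coding gene, by CpG number at the start; error bars are Wilson 95% intervals. In deserts the start has a peak in 6.76% and the other end in 1.83%.

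Desert lncRNA windows with a peak had more CpG than those without. The 147 windows that met a peak had a median GC content of 48.3% and 5 CpG, the 1870 others 44.7% and 3 CpG, and all 32851 RefSeq windows had 52.7% and 7 CpG. A GC box (GGGCGG, either strand) was in 19.05% of windows with a peak, 4.55% without and 35.7% of all. An AP-1 motif (TGANTCA, the same on both strands) was in 17.0%, 9.84% and 7.81%, and a TEAD motif (GGAATG) in 22.4%, 16.5% and 14.7%. The forkhead motif (TGTTTAC), the family to which Foxc1 belongs, was in 4.76% with a peak, 4.76% without and 3.65% of all. For SOX (ACAAAG) the shares were 23.1%, 25.4% and 18.7%, and for RUNX (TGTGGT) 17.0%, 20.4% and 16.8%. The letters AGATAA, read by factors such as Gata3, were in 10.2%, 18.6% and 11.2%. The CCAAT box, spelled as named, was in 36.7%, 39.8% and 37.4% of the windows. The core promoter letters TATAAA were in 17.0%, 20.3% and 13.6%. The NFI motif was in 1 window with a peak and 12 of all windows. Motifs were counted separately and may overlap, and several windows can belong to 1 gene.

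Some of the widest desert peaks lay near chromosome starts. Of the 10 widest, 6 lay in the first 500 kb of a chromosome's annotated or accessible ground, and of the 50 widest, 12 did. The widest of all was 38484 bp at chr9:2999928-3038411, followed by one of 11355 bp at chr16:3231508-3242862. The others near starts were of 6285 and 4307 bp on chromosome 4 beside Vmn1r2, of 5412 bp beside Scaf8 and of 3886 bp beside Vmn1r238. The 149 desert peaks so placed (1.61%) had a median width of 450 bp, against 401 bp for the others, and 37 were at least 1000 bp wide. Of the 57 peaks before Olfr161, an olfactory receptor gene, 10 were that wide. The other 4 of the 10 widest lay away from starts. They were of 6077 bp at chr17:39842922-39848998, at the ribosomal RNA pseudogene Rn18s-rs5, of 4211 bp beside Gm2244, of 3736 bp beside Klf6 and of 3714 bp beside Nckap5. How reads that map to several places were treated is not known. What part mapping has in these widths, or in the density before Olfr161, was not tested.

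The 5 peaks farthest from any protein-coding gene each stood alone, at 2138 to 2240 kb. They were 519 and 385 bp wide between Celf4 and Pik3c3, 200 and 277 bp between Olfm4 and Pcdh17, and 303 bp beside Cntnap5b. The 10 widest peaks at non-coding gene ends began with Rn18s-rs5, and 7 were at lncRNA genes. Those were of 3637 bp at Gm46567, 3365 bp at Gm41423, 3181 bp at Gm26901, 2553 bp at 8430436N08Rik, 2541 bp at Gm52715 and 1700025O08Rik, 2331 bp at Gm36543 and 2285 bp at Gm35079. The remaining ones were the peak at Gm25210 already given and one of 2078 bp at the pseudogene Gm5819, 519 kb from Fzd8. As placement went by midpoint, wide peaks that reach an end can be missing here. Examples are the 3661 bp peak over a bound of Mir205hg and the 3357 bp peak over the Lncpint promoter.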

How the data were processed

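ATAC-seq was run on hair follicle stem cells of 2 genotypes, with 2 runs of each, taken here as 1 library. The build, mm10, and the tools Bowtie2, MACS2 and bedtools are named per the submitters' processing notes. Which versions, thresholds and pooling of runs lay behind the list is not given in the sources used. The deposited file of the authors has 3 columns, chromosome, start and end, so depth is unknown, and the number of per-sample columns left unused was 0.

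Starts were converted to count from 1. Genes were taken from the RefSeq table for GRCm38.p6, without 328 autosomal entries placed wholly below 3 Mb, where no peak lies (the first begins at base 2999928). Distances were taken from peak midpoints to gene bounds, and each desert peak was assigned to its nearest protein-coding gene. Dense stretches were left out of every class compared. Lists described with a density pool the ground on each gene's side of a desert. Computations used Python 3.11.15, pandas 2.3.3, numpy 2.4.6 and scipy 1.17.1, and distances and ground were tested on simulated chromosomes.

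The members and lists were chosen with earlier results of these data known. Named are the 12 deserts with the most peaks, the 5 densest of at least 200 kb, the 5 longest, the 15 genes nearest to the most peaks, the 10 widest peaks, the 5 peaks farthest from genes, the 10 non-coding genes with the widest peak at an end, the 3 peaks on each side of the limit, and the 12 genes of the stem cell, keratinocyte and signalling lists with the most peaks. Other listed genes, the longest empty desert and the microRNAs were named after their values were seen. Alternatives were other distances, gene types, widths and stretches; leaving out chromosome starts or provisional genes was added after the data were seen.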

Additional observations from a re-analysis of the deposited data

How the results depend on the processing

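The desert to near ground ratio stayed below 1 under each of the 9 alternatives. Its size was less stable, and it left the interval of the main setting (0.422 to 0.442) under 6 of them. Density left its interval (13.8 to 14.4 per Mb) under 5 and median width (393 to 409 bp) under 4. The share at non-coding ends (4.64% to 5.53%) did so under 2 of 8. Density was 11.7 peaks per Mb with the limit at 200 kb, 16.2 at 50 kb, 10.1 with genes of every type counted, 12.4 without peaks of 200 bp and 14.4 without provisional protein-coding genes. Median width was 364.5 bp at 200 kb, 433 bp at 50 kb, 336 bp with every gene type and 454 bp without peaks of 200 bp. The share at non-coding ends was 4.19% at 200 kb and 6.01% at 50 kb, and has no value with every gene type, since such peaks are then excluded. The ratio was 0.392 at 200 kb, 0.458 at 50 kb, 0.405 with every gene type, 0.405 without peaks of 200 bp, 0.453 without stretches of 10 or more peaks and 0.485 when whole peaks, not midpoints, were placed. The number of desert peaks was 5392 at 200 kb and 1855 with every gene type. These settings change the ground or the peaks counted, and other causes of the differences were not tested. No paired analysis was possible because the list has no column for a sample. With no read counts, what depth limits could not be measured.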

Other observations

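The X chromosome, outside the rule, was read the same way. It held 461 desert peaks at 8.30 per Mb (7.56 to 9.09), below the 11.2 to 20.2 per Mb of the autosomes. Its ground outside genes and within 100 kb of one held 16.4 per Mb, so that the ratio, 0.505, was inside the range of the autosomes. The X desert peaks had a median width of 303 bp, against 354 to 453 bp on the autosomes. Near peaks of the X were narrower too, with a median of 361 bp against 464.5 to 579 bp on the autosomes. The mice were female, and what part copy number, mapping or chromatin has in these values was not tested.

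Sox4 and Myc, a transcription factor of the SOX family and a growth regulator, were looked at after their values were seen. Sox4 had 28 desert peaks, 26 of them below the gene, and a group of 12 in 36.5 kb. Myc had 26, of which 13 lay on either side, up to 778 kb away.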
